A study of Mus musculus with 2 samples.

Results

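Interferon-stimulated genes are the genes that cells switch on when they sense interferon, and 35 of them were listed by symbol for the present description. Of these, 33 were found in the gene table of the single-cell matrices, which holds 32285 genes, and all 33 were also in the list of genes that the study kept. Mx1 and Mx2 were not analysed here. The list was drawn up by gene name, but with earlier results of these data known, so counts of members are descriptions. Each member was followed as unique molecular identifiers (UMIs, 1 per captured transcript) summed per mouse and per cluster of tumor cells.

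The cells came from mammary tumors of 2 mice of 1 genotype, Krt8-CreERT with the Rosa26-mTmG reporter and MMTV-PyMT, and there was no untreated or second group. MMTV-PyMT drives the polyoma middle T oncogene in the mammary epithelium, and Krt8-CreERT recombines the reporter in luminal cells that express Krt8, so that these cells and their descendants turn green. Labelling was started with tamoxifen at 150 mg/kg during weeks 5 and 6, over 6 days in all. Tumors were taken at 1.5 cm3, and green cells negative for CD31, CD45 and DAPI were sorted, 1 library per mouse. The deposited annotation places 3829 cells of mouse 1 and 5330 cells of mouse 2 in 18 numbered clusters, of which the study describes cluster 6 as lumino-basal and cluster 13 as mature luminal.

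Annotated cells held 58629906 UMIs in mouse 1 and 56972644 in mouse 2, with medians of 15014 and 9470 UMIs per cell, and 9 annotated barcodes occurred in both libraries. The luminal keratin Krt8 was detected, at an even depth of 2000 UMIs, in 92.9% and 95.2% of the cells outside cluster 17 and in 98.6% and 98.3% of those inside it. Transcripts of at least 3 genes of a fibroblast, endothelial, pericyte, leukocyte or neutrophil list were found in 49 cells of mouse 1 and 55 of mouse 2, and 32 and 43 of these were in cluster 6.

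Type I interferon binds the receptor chains Ifnar1 and Ifnar2, and the kinases Jak1 and Tyk2 then activate transcription factors that include Stat2. Stat2 and Irf9 are parts of a complex that binds a short DNA element, the interferon-stimulated response element (ISRE), next to its target genes. Type II interferon acts mainly at another element, the gamma-activated site (GAS). The targets include sensors of foreign RNA and DNA, proteins that block viral translation, replication or entry, and Irf7, which raises the output of the pathway further.

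To place the members in their sequence context, promoter windows from 250 bases before to 50 bases after each RefSeq gene start (GRCm38.p6) were searched on both strands for GAAA, 2 bases of any kind and GAAA, as a core of the ISRE, and for TTC, 3 bases of any kind and GAA, as the GAS. A window was found for 26 of the 35 members. The ISRE core occurred in 14 of these 26, against 3.99% of the 27025 genes with a window, and the GAS in 7 of 26, against 9.55% of genes. Each match is a string of letters and was not tested as a binding site. The 5 windows below belong to members with a match that passed the test in the comparisons of cluster 6 given later, and show 200 bases up to the base before the start, 5′ to 3′ on the strand of the gene, with the ISRE core in capitals. Ifit3 (chr19:34583329-34583528, plus strand), Ifit3b (chr19:34607757-34607956, plus strand) and Ifit1 (chr19:34640689-34640888, plus strand) each hold 2 matches, Isg15 (chr4:156200819-156201018, minus strand) holds 3 overlapping ones, and Gbp2 (chr3:142620463-142620662, plus strand) holds 1.
Ifit3: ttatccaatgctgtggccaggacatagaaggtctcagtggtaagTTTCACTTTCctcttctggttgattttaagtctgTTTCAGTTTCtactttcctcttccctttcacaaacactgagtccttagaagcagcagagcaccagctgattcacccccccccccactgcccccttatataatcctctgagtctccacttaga
Ifit3b: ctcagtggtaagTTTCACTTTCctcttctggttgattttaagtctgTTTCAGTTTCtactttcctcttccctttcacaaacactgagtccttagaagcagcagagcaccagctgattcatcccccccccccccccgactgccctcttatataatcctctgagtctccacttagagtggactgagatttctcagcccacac
Ifit1: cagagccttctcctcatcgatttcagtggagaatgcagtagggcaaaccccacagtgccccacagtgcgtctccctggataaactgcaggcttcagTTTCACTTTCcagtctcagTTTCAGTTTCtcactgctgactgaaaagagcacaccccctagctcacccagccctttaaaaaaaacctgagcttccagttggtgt
Isg15: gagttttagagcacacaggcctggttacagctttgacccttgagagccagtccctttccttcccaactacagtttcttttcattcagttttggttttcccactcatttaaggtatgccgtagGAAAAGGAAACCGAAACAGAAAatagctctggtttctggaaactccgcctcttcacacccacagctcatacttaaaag
Gbp2: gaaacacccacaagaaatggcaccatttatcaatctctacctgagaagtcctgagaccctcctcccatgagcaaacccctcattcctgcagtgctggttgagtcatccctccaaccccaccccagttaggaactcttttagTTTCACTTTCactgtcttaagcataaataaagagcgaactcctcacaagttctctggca
The windows of Ifit3 and Ifit3b hold their first match at 156 and 188 bases before the annotated start, within a stretch of the same letters. These neighbours on chromosome 19 are close copies, so that their UMIs may be split between them, and their levels are best read together.

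The first question was where in the tumor the members were transcribed. Cluster 17, a small cluster of 69 cells in mouse 1 and 59 in mouse 2, held by far the highest level in both animals. The 33 members together made up 9573 CPM (UMIs divided by all UMIs of the cells summed and scaled to a common total) in cluster 17 of mouse 1 (exact Poisson 95% interval 9401 to 9748) and 9713 CPM in mouse 2 (9494 to 9936), against medians of 1837 and 1584 CPM over the other 17 clusters. These intervals cover counting error only. The highest other clusters were cluster 8 in mouse 1, at 5979 CPM, and cluster 11 in mouse 2, at 3491 CPM, but a single member, Ifitm3, gave 37.8% and 48.7% of the member UMIs of all annotated cells. With the 3 highest members over all cells (Ifitm3, Ifi27 and Bst2) set aside, cluster 17 stood at 6390 and 5401 CPM and the next cluster at 1627 and 1427 CPM.

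A core list of 19 measured antiviral members set cluster 17 further apart. It leaves out broadly expressed members such as Ifitm3 and Ifi27, but also low ones such as Irf1, Irf9 and Stat2. The core list was drawn up with earlier results of these data known, so the wider gap is a description and not independent evidence. The sum of the core members was 5103 CPM in cluster 17 of mouse 1 and 3994 CPM in mouse 2, and the median of the other clusters was 459 and 349 CPM. Cluster 17 held 2.09% and 1.35% of the UMIs of the annotated cells but 20.4% and 15.6% of their core UMIs. Below it, clusters 9 and 11 followed at 1177 and 844 CPM in mouse 1 and at 744 and 854 CPM in mouse 2, so that their order changed between the animals. Cluster 16 was low in both mice, at 190.5 and 185 CPM, whereas cluster 2 stood at 773 CPM in mouse 1 and 118 CPM in mouse 2, the lowest value there.

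**Figure D1:**
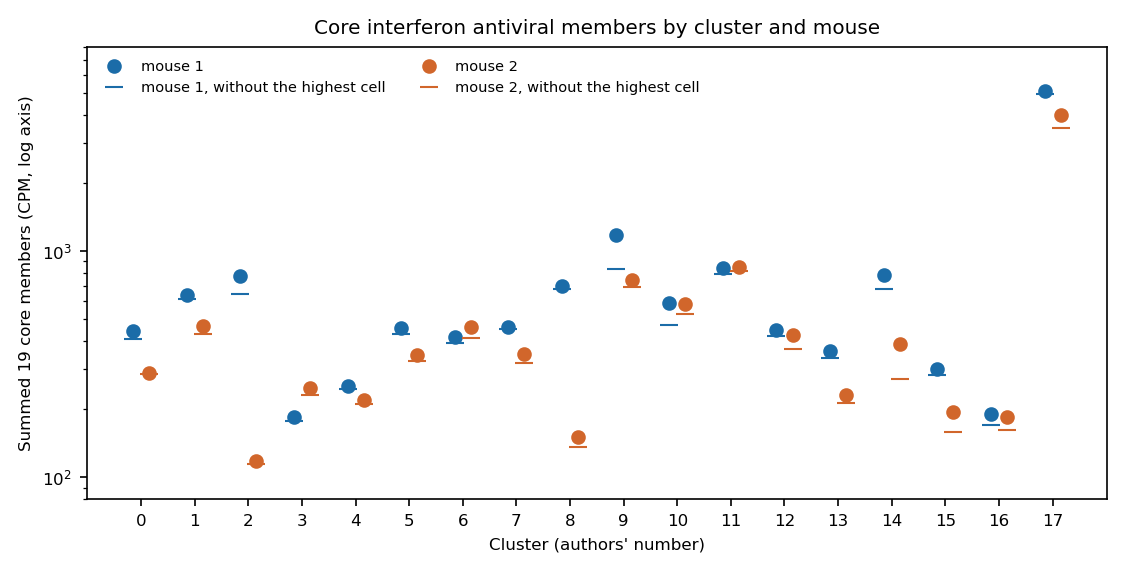
Summed level of the 19 core members (CPM, log axis) by cluster, with 1 circle per mouse and a dash for the same sum without the cell that holds most core UMIs. Cluster 17 sits at 5103 and 3994 CPM, above every other cluster of both mice, and cluster 9 of mouse 1 falls from 1177 to 831 CPM when 1 cell is left out.

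All 19 core members, and 27 of all 33, had their highest level of any cluster in cluster 17 in both mice. The members that did not were Ifi27l2a, Ifi27, Irf1, Irf9, Stat2 and Ifitm3, none of them in the core list. Because the lists were drawn up with earlier results of these data known, these counts are not independent evidence. The level in cluster 17 was at least 2-fold that of all other cells in both mice for 29 members, at least 5-fold for 19 and at least 10-fold for 8. The median ratio was 6.32 in mouse 1 and 8.31 in mouse 2 over the members, and 0.976 and 0.989 over the 9878 and 9016 genes with enough UMIs for a ratio. Of these genes, 3.31% in mouse 1 and 4.04% in mouse 2 reached 2-fold, and 0.587% and 0.854% reached 5-fold. The clusters were drawn from these same expression values, so the contrast of cluster 17 with the rest is a description and carries no test.

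**Figure D2:**
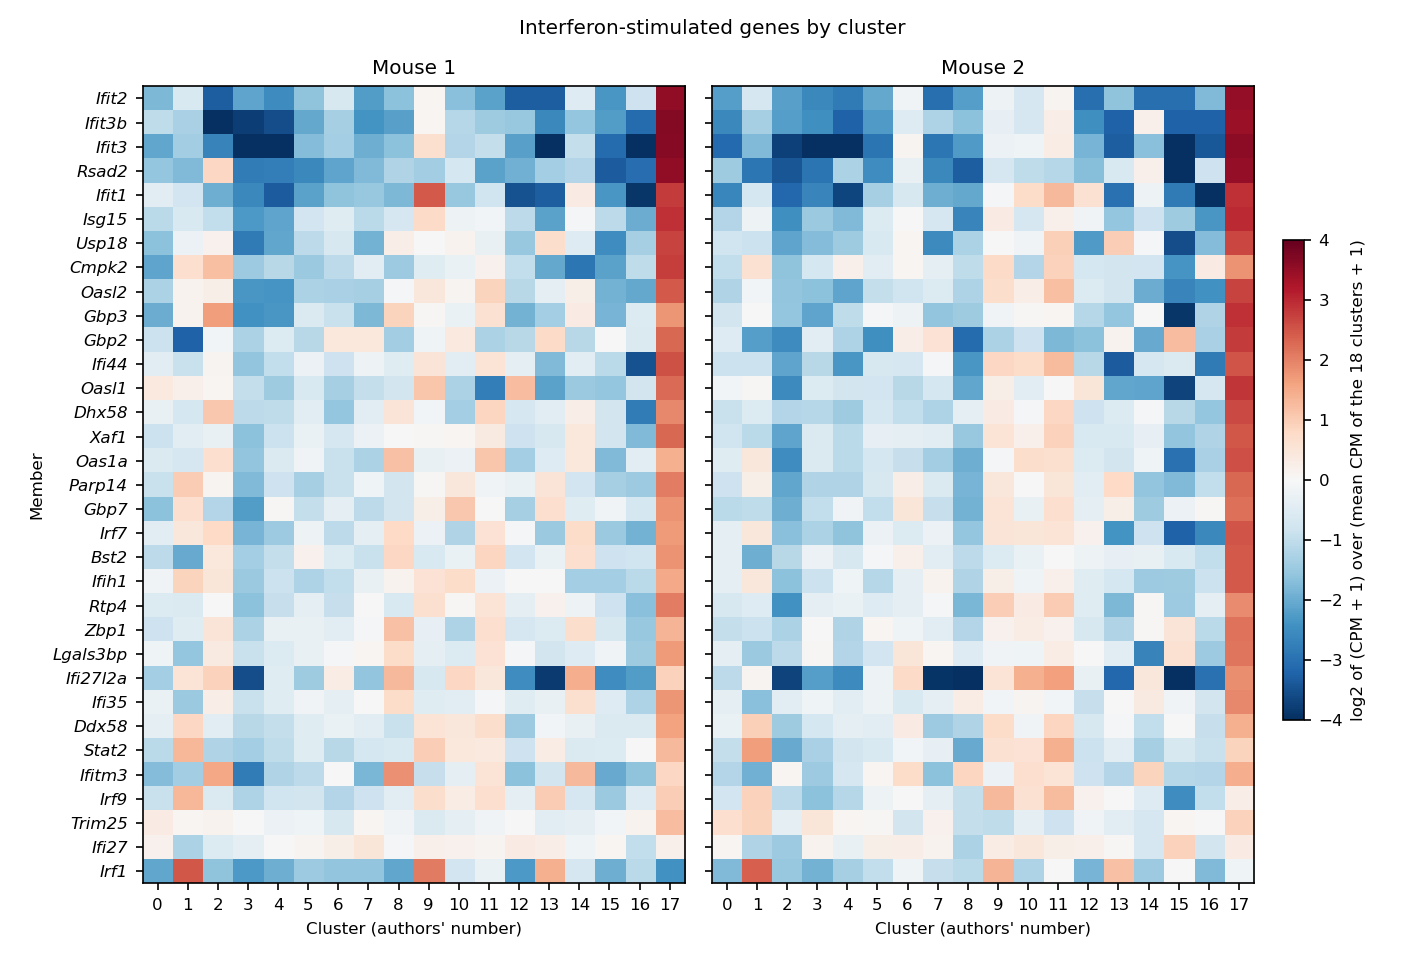
Level of each of the 33 members in each of the 18 clusters, as log2 of (CPM + 1) over the mean CPM of the 18 clusters of that mouse plus 1 (red, above the mean; blue, below), with mouse 1 at left and mouse 2 at right and members ordered by their mean ratio in cluster 17. The column of cluster 17 is red for nearly all members in both mice, and Irf1, at the bottom, is instead highest in clusters 1, 9 and 13.

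The IFIT proteins bind foreign RNA and block its translation, and their genes lie side by side on chromosome 19. Ifit2 stood at 115 CPM in cluster 17 and 1.99 CPM in all other cells of mouse 1, and at 92.2 and 1.44 CPM in mouse 2, ratios of 57.9 and 64.0. Ifit3 stood at 671 against 11.9 CPM in mouse 1 and at 266 against 4.25 CPM in mouse 2. Ifit3b, its close copy, had ratios of 55.5 and 64.1. Ifit1 was at 286 against 20.03 CPM and at 234 against 10.8 CPM, with ratios of 14.3 and 21.7. In mouse 2, 1 cell held 46.8% of the Ifit3 UMIs of cluster 17 and 42.2% of its Ifit1 UMIs, and without it these levels were 144 and 137 CPM. Without the cell that held most, the ratios in mouse 2 were 33.8 for Ifit3, 41.8 for Ifit2, 40.3 for Ifit3b and 12.7 for Ifit1.

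Isg15 is a ubiquitin-like protein that is coupled to other proteins, and Usp18 removes it and also restrains the receptor. Isg15 reached 1439 CPM in cluster 17 of mouse 1 and 960.1 CPM in mouse 2, against 90.3 and 51.8 CPM elsewhere. At 2000 UMIs per cell it was detected in 88.4% and 75.9% of the cells of cluster 17 and in 13.1% and 8.70% of the other cells, so that it was the most widely detected core member in cluster 17. Usp18 stood at 104 and 72.8 CPM, 16.6 and 12.5 times its level elsewhere, but was detected in only 15.9% and 12.1% of cluster 17 cells at this depth. No cell type in these samples is known to lack interferon-stimulated genes, and the part of free RNA in the detection shares was not tested.

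Rsad2 (viperin) and Cmpk2, neighbours on chromosome 12, encode enzymes that make an altered nucleotide which ends viral RNA chains. Rsad2 stood at 613 and 542 CPM in cluster 17 against 14.3 and 16.2 CPM elsewhere, ratios of 43.0 and 33.5. Cmpk2 had 61 UMIs in cluster 17 of mouse 1 and 13 in mouse 2, and its ratios, 22.0 and 6.25, differed more between the animals. The 2-5A synthetases activate RNA decay, and Oasl1 is a related protein without that activity. The family was represented by Oasl2, at 184 and 179 CPM against 15.4 and 13.6 CPM, by Oasl1, at 71.8 and 92.2 CPM against 10.9 and 7.40 CPM, and by Oas1a, at 18.8 and 45.5 CPM against 4.34 and 3.99 CPM. Cluster 17 was the highest cluster for each of these 5 genes in both mice.

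Of the sensors, Ddx58 (RIG-I) and Ifih1 (MDA5) detect viral RNA, Dhx58 modulates them and Zbp1 binds left-handed nucleic acid and can start cell death. Ifih1 stood at 93.0 and 162 CPM in cluster 17 against 23.6 and 19.6 CPM elsewhere, and in mouse 2 a single cell held 39.2% of these UMIs. Ddx58 stood at 53.0 and 57.2 CPM against 11.6 and 15.8 CPM, Dhx58 at 48.9 and 57.2 CPM against 8.97 and 4.55 CPM, and Zbp1 at 119.9 and 184 CPM against 35.8 and 24.7 CPM. Trim25, the ubiquitin ligase that activates RIG-I, was the flattest of the group, at 122 and 87.0 CPM in cluster 17 against 52.0 and 48.7 CPM elsewhere. In mouse 2, Trim25 was nearly as high in cluster 1, at 85.2 CPM.

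The guanylate-binding GTPases attack membranes around intracellular pathogens and respond strongly to type II interferon as well. Gbp2 stood at 210.4 and 256 CPM in cluster 17 against 29.9 and 18.6 CPM elsewhere, Gbp3 at 58.7 and 112 CPM against 8.26 and 7.31 CPM, and Gbp7 at 40.0 and 59.8 CPM against 5.71 and 7.83 CPM. All were highest in cluster 17 of both mice, although Gbp3 reached 55.0 CPM in cluster 2 of mouse 1. The members of this family resemble each other in sequence, and UMIs from shared stretches may have been assigned to any of them or discarded.

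Further members with other roles followed the same order. Xaf1, a proapoptotic factor, stood at 254 and 186 CPM in cluster 17 against 32.1 and 19.5 CPM elsewhere, and Ifi44 at 183 and 152 CPM against 19.3 and 13.8 CPM. Rtp4, a chaperone that also restrains antiviral signalling, stood at 252 and 182 CPM, Parp14, an ADP-ribosyltransferase, at 144 and 131 CPM, Ifi35 at 245 and 159.8 CPM, and the secreted Lgals3bp at 253 and 248 CPM. Their ratios to all other cells ran from 3.77 for Lgals3bp in mouse 1 to 11.0 for Ifi44 in mouse 2.

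**Figure D3:**
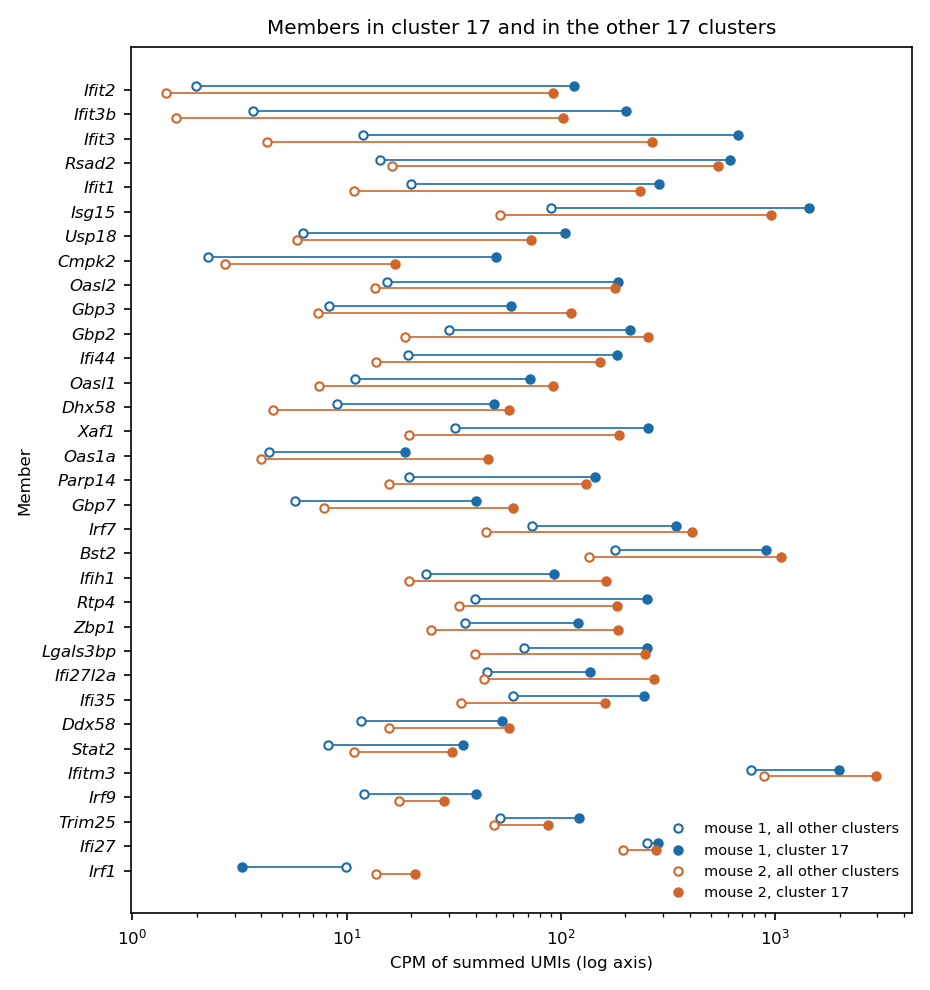
Level of each member (CPM of summed UMIs, log axis) in cluster 17 (filled circles) and in all other clusters together (open circles), with mouse 1 in blue and mouse 2 in orange and a line joining the values of the same mouse. Ifit2, Ifit3 and Ifit3b have the largest ratios in both mice, 55.5 to 57.9 in mouse 1 and 62.6 to 64.1 in mouse 2 (33.8 to 41.8 without the cell that held most), whereas Ifi27 differs by ratios of 1.12 and 1.42 and Irf1 by 0.327 and 1.52.

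A few members did not follow cluster 17. Bst2 (tetherin), which holds virions at the cell surface, still peaked there, at 909 and 1064 CPM against 179 and 135 CPM elsewhere. Ifitm3, which blocks viral fusion, was highest in cluster 8 of mouse 1, at 3998 CPM, ahead of clusters 2, 14 and 17 at 3232, 2728 and 1989 CPM, whereas in mouse 2 cluster 17 led with 2971 CPM, ahead of cluster 14 at 2037 and cluster 8 at 1972 CPM. Ifi27l2a reached 199 CPM in cluster 14, 179 CPM in cluster 8 and 136 CPM in cluster 17 of mouse 1, and 273 CPM in cluster 17 and 233 CPM in cluster 11 of mouse 2, where cluster 8 was at 2.06 CPM. The neighbour of Ifi27l2a on chromosome 12, Ifi27, also a small mitochondrial protein, stood at 285 and 277 CPM in cluster 17 against 253 and 194 CPM elsewhere. Over the clusters it ran from 101 CPM in cluster 1 to 343 CPM in cluster 7 of mouse 1, and from 79.1 CPM in cluster 2 to 417 CPM in cluster 15 of mouse 2.

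The transcription regulators divided in the same way. Irf7 followed the other core genes, at 343 and 409 CPM in cluster 17 against 73.3 and 44.5 CPM elsewhere. Stat2 and Irf9, parts of the ISRE complex, stood at 35.1 and 31.2 CPM and at 40.0 and 28.6 CPM in cluster 17, which did not lead for either gene. Stat2 was at 36.1 and 54.9 CPM in cluster 1, and Irf9 was highest in cluster 1 of mouse 1, at 50.5 CPM, and in cluster 9 of mouse 2, at 58.6 CPM. Irf1, an early target through the GAS, was nearly absent from cluster 17 of mouse 1, with 4 UMIs or 3.26 CPM, and stood at 20.8 CPM in mouse 2.

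Irf1 was instead concentrated in 3 clusters that the animals shared. It reached 128 and 129 CPM in cluster 1, 96.2 and 62.2 CPM in cluster 9 and 60.7 and 54.2 CPM in cluster 13, the mature luminal cluster, and in every other cluster it stayed at or below 24.3 CPM in both mice. Cluster 1 is made of shallow cells, with medians of 1258 and 1009 UMIs and mean mitochondrial shares of 9.63% and 8.44%, against 5.93% and 5.38% in cluster 17. The part of cell quality in the level of Irf1 in cluster 1 was not tested. Clusters 9 and 13 were deeper, at medians of 7974.5 and 15278 UMIs in mouse 1 and of 6343 and 11818.5 UMIs in mouse 2. Their mean mitochondrial shares were 7.77% and 7.73% in cluster 9 and 5.69% and 5.00% in cluster 13. The part of cell quality was not tested there either.

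Whether the clusters differed beyond the spread between the mice was asked of each member with edgeR's quasi-likelihood F test on the 36 sums, with Benjamini-Hochberg adjustment. All 33 members were tested and passed the adjusted threshold of 0.05, but so did 81.0% of the 11603 genes tested, so that a call by itself says little about the members. The clusters were also drawn from these same expression values, so the p values are no independent support for a difference. Adjusted p values by edgeR ran up to 0.0165, for Oas1a. Without cluster 17, a setting added after the values were seen, 28 of 33 members passed, beside 80.3% of genes. The 5 that did not were Zbp1 (adjusted p = 0.435 by edgeR), Rsad2 (0.280), Oas1a (0.271), Cmpk2 (0.162) and Rtp4 (0.128).

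Some of the levels in other clusters rested on single cells. In cluster 9 of mouse 1, 1 of 138 cells held 290 of the 316 UMIs of Ifit1, or 91.8%, and without it the level was 18.7 rather than 225 CPM. Likewise 1 cell gave 93.8% of the Ifit1 UMIs of cluster 12 in mouse 2, 88.9% of the Rsad2 UMIs of cluster 14 in mouse 2 and 81.6% of the Rsad2 UMIs of cluster 2 in mouse 1. The core sum of cluster 17 was less dependent on any cell, at 4962 and 3511 CPM without its highest cell.

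The ligands themselves were scarcely captured. Over 21 interferon genes, 73 UMIs were counted in all annotated cells of mouse 1 and 10 in mouse 2, and none in cluster 17, where a count of 0 allows up to 2.45 and 3.90 CPM for each gene. Ifnb1, the interferon that most cell types can make, accounted for 62 of the UMIs in mouse 1, in 5 cells, and was not seen in mouse 2. A single cell of cluster 9 held 49 of these 62 UMIs, and it is the cell with 290 Ifit1 UMIs. The same cell carried 108 UMIs of Isg15, 32 of Ifit3 and 80 of the chemokine Cxcl10, and its core level was 31657 CPM. A cell of cluster 14 held 10 Ifnb1 UMIs, with 26 of Ifit1, 17 of Isg15, 10 of Cxcl10 and a core level of 16708 CPM. The remaining 3 Ifnb1 cells had 1 UMI each and core levels of 101 to 344 CPM.

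Cells with core levels of at least 10000 CPM, a limit set after the values were seen, were few. Outside cluster 17 there were 4 among the 3268 cells of mouse 1 with at least 2000 UMIs and 3 among the 4415 of mouse 2, spread over clusters 0, 6, 9 and 14 and over clusters 6, 10 and 12. Inside cluster 17 there were 7 and 3. Ifit1 made up 48.0% and 43.3% of the core UMIs of the intense cells outside cluster 17, against 3.06% and 13.1% in those inside it and 5.61% and 5.86% in all cells of cluster 17. A single cell gave 290 of the 550 Ifit1 UMIs outside cluster 17 in mouse 1, and without it the share was 40.1%. Rsad2 made up 0.697% and 3.41% outside, against 16.1% and 25.5% in the intense cells of cluster 17. Irf7 differed less, at 0.697% and 1.31% against 4.64% and 2.43%. With 1 library per mouse and so few cells, this is a description without a test, and 1 of the 3 cells of mouse 2 held transcripts of another cell type, as did 1 of the 7 in cluster 17 of mouse 1.

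Next, the members were followed in single cells. Cells were thinned to 2000 UMIs each, which left 3337 cells of mouse 1 and 4473 of mouse 2, and a cell with at least 3 of the core members detected was called interferon-rich. By this measure 340 cells (10.2%) of mouse 1 and 291 (6.51%) of mouse 2 were interferon-rich. In cluster 17 they were 64 of 69 cells (92.8%, Clopper-Pearson 95% interval 83.9% to 97.6%) and 47 of 58 cells (81.0%, 68.6% to 90.1%). Cluster 17 held 18.8% and 16.2% of all such cells, and 31.0% and 23.1% of those with at least 4 core members. Interferon-rich cells were found in all 18 clusters of mouse 1 and in 17 of mouse 2.

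Outside cluster 17, 8.45% and 5.53% of cells were interferon-rich, a share that moves with depth. Its mean over the mice, 6.99% at 2000 UMIs, was 2.48% at 1000 UMIs and 35.1% without thinning. Cluster 11 had the highest share in mouse 2, 39 of 173 cells (22.5%, 16.5% to 29.5%), and in mouse 1, 25 of 98 cells (25.5%, 17.2% to 35.3%), followed by cluster 9 with 14.4% in mouse 2 and by cluster 14 with 23.6% in mouse 1. Cluster 3 had 1.36% and 3.85%, and cluster 13 had 4.17% and 1.64%. The order of the clusters outside cluster 17 moved with depth as well. In mouse 1, cluster 14 had 17.1% and cluster 11 6.19% at 1000 UMIs, and without thinning cluster 8 had 91.0% and cluster 11 40%. In mouse 2, cluster 11 still led at 1000 UMIs, with 11.7%, but without thinning it had 38.6% and cluster 10 48.3%. In cluster 11 the mean mitochondrial share was 11.1% in mouse 1 and 11.2% in mouse 2, the highest of the 18 clusters, and the part of cell quality in its share was not tested. Per cell, the median core level was 4489 and 3037 CPM in cluster 17 and 202 and 97.8 CPM elsewhere, with overlap at the extremes, since the lowest cluster 17 cells were at 1157 and 821 CPM.

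**Figure D4:**
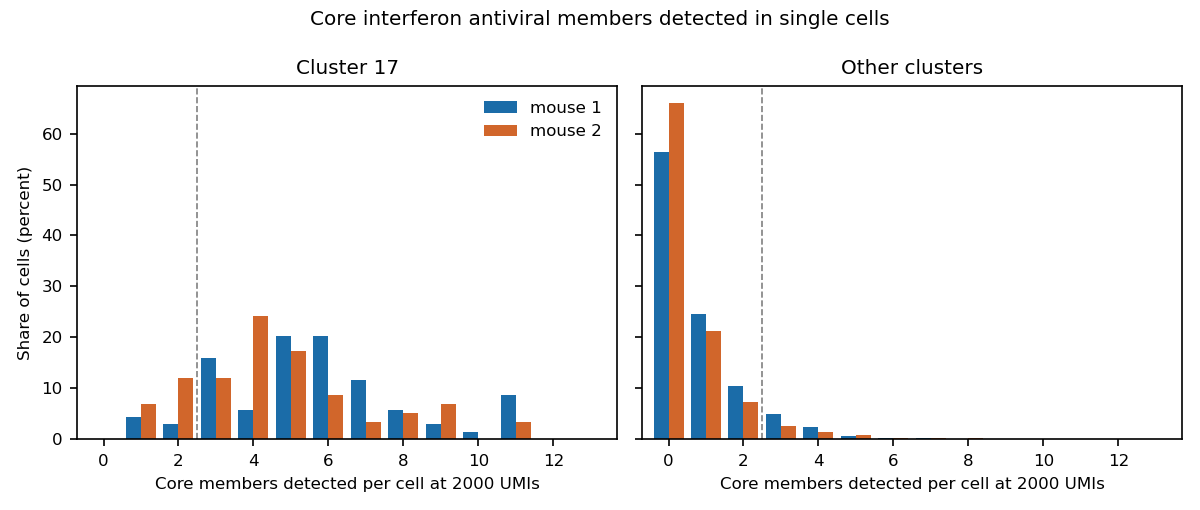
Share of cells (percent) by the number of core members detected per cell after thinning to 2000 UMIs, in cluster 17 and in the other clusters, with mouse 1 in blue and mouse 2 in orange and a dashed line at the limit for interferon-rich cells. Of the cells of cluster 17, 92.8% and 81.0% lie to the right of the line, against 8.45% and 5.53% of the other cells.

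To ask whether these cells also carried other interferon-induced transcripts, genes that are not members were tested between interferon-rich and other cells with edgeR, with the mouse as a block. Of 48 further interferon-induced genes tested, 39 were higher in interferon-rich cells and none lower. Of the 10636 genes tested, 1.67% were higher and 0.574% lower. Some of the 39, among them Cxcl10, Gbp6, Slfn5, Gbp9, Oas2 and Oas3, met the filter on low counts in interferon-rich cells only. They were tested because they were high there, so the count of 39 is not read against the share of all genes. The 39 included the GTPases Irgm1, Igtp and Ifi47, the immunoproteasome subunits Psmb8 and Psmb9, and the peptide transporter Tap1. Of receptors, kinases, sensors and adaptors, only Socs3, a feedback inhibitor of cytokine signalling, passed, at 45.6 and 96.2 CPM against 33.7 and 34.3 CPM. Without the mouse as a block 3 of the 48 passed, DESeq2 called 21, and with the interferon-rich sum of mouse 1 or of mouse 2 left out 0 and 1 passed. The list was compiled with earlier results of these data known, and its count is not independent evidence.

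The 12 largest rises among 145 genes that were at least 20 CPM and changed alike in both mice were led by chemokines. Ccl5, which attracts T cells, stood at 284 and 97.9 CPM in interferon-rich cells and at 3.50 and 3.35 CPM in the others (log2 difference 5.63 ± 0.24, SE). Here and below the SE was derived from the F statistic of the edgeR fit. That fit has 1 residual degree of freedom and spread shared over genes, so the SE is not the spread between the 2 mice. Cxcl10, an attractant of T and NK cells, stood at 47.1 and 63.6 CPM against 2.17 and 1.67 CPM (4.82 ± 0.40). In mouse 1, the Ifnb1-rich cells of clusters 9 and 14 described above held 80 and 10 Cxcl10 UMIs before thinning. How far the level in mouse 1 rests on them was not tested. Gbp6, Slfn5, Iigp1, Ctla2a, Ddx60, Ifi47, Phf11d, Herc6, Apol9b and Igtp completed these 12, with log2 differences from 4.16 for Gbp6 to 2.78 for Igtp. Cxcl10, Gbp6 and Slfn5 met the filter on low counts in interferon-rich cells only, so their ranks are descriptions. Ctla2a, a protease inhibitor, differed between the mice, at 11.8 against 4.50 CPM in mouse 1 and 91.1 against 5.14 CPM in mouse 2. These differences include those between the clusters that the cells came from. With the other cells weighted to the cluster makeup of the interferon-rich ones, their level of Iigp1 was 72.5 and 65.5 rather than 19.7 and 16.1 CPM, against 191 and 201 CPM in interferon-rich cells. In mouse 2 that of Cxcl10 was 8.16 rather than 1.67 CPM, that of Ddx60 21.03 rather than 5.14 CPM, that of Apol9b 10.9 rather than 2.63 CPM and that of Gbp6 15.0 rather than 0.837 CPM, against 29.2 CPM in interferon-rich cells. In mouse 1 that of Ifi47 was 51.3 rather than 18.7 CPM, against 89.7 CPM. Cluster 17 took 18.8% and 16.2% of this weight, but 64 of its 69 cells and 47 of its 58 were interferon-rich. Its part of the weighted levels thus rests on the few cells left, where a single UMI can move a level by several CPM. The weighted levels are therefore rough. All 12 genes were still higher in interferon-rich cells of both mice on this scale.

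With cluster 17 left out, an alternative added after the values were seen, 25 of 50 further interferon-induced genes tested were still higher, beside 0.868% of genes higher and 0.168% lower. Of the 12 genes named, Igtp alone was no longer past the threshold (log2 difference 1.49, adjusted p by edgeR 0.081), and Cxcl10 stood at 4.76. Interferon-rich cells included 5 cells of mouse 1 and 13 of mouse 2 with transcripts of another cell type. Fibroblast and pericyte markers also passed as higher in interferon-rich cells, at levels raised mainly in mouse 2. Col3a1 stood there at 149 against 21.2 CPM, Dcn at 219.9 against 33.4 CPM and Rgs5 at 73.9 against 10.04 CPM, whereas in mouse 1 Col3a1 stood at 14.7 against 19.2 CPM, Dcn at 23.5 against 45.4 CPM and Rgs5 at 0 in both. The early response genes Fos, Egr1 and Jun were higher as well, with Fos at 829 and 1222 CPM against 343 and 639 CPM, or 562 and 1253 CPM in other cells weighted to the same clusters. These genes were picked after their values were seen. Without the cells with transcripts of another type, 38 of 47 further interferon-induced genes were higher, beside 1.40% of genes higher and 0.561% lower. Because of the filter on low counts, neither this count nor that of 25 is read against the share of all genes.

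The wider pathway was also described in cluster 17. Of 48 further interferon-induced genes with enough UMIs for a ratio in both mice, 42 were at least 2-fold and 18 at least 5-fold above all other cells in both. Of all genes with a ratio, 3.31% in mouse 1 and 4.04% in mouse 2 reached 2-fold, and 0.587% and 0.854% reached 5-fold. Igtp stood at 226 and 155 CPM against 15.6 and 9.54 CPM. Of 15 sensors and adaptors none reached 2-fold in both mice. With so few of all genes at 2-fold, that count says little about the sensors and adaptors. Ifnar1 stood at 8.15 and 9.09 CPM against 14.0 and 15.2 CPM, Ifnar2 at 98.7 and 89.6 CPM against 93.2 and 79.9 CPM, and Socs3 at 6.52 and 7.80 CPM against 25.3 and 27.6 CPM. Cxcl10 differed between the animals, at 4.08 against 5.50 CPM in mouse 1 and 87.0 against 4.86 CPM in mouse 2.

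Cluster 17 was epithelial by its markers. The 8 luminal keratin and junction genes summed to 20917 and 22722 CPM, within the range of the other clusters, and the 8 basal genes to 39.1 and 110.4 CPM, against 3464 and 3539 CPM in cluster 6. The 9 T and NK cell genes and the 5 B cell genes were at 0 in both mice, the 9 fibroblast genes summed to 4.89 and 0 CPM, and the 10 macrophage genes to 24.5 and 12.99 CPM, with 9 and 7 of the 10 at 0. Only 1 cell of cluster 17 in mouse 1, and 0 in mouse 2, held transcripts of at least 3 genes of another type.

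Over the 18 clusters, the genes whose level was most like the median scaled level of the members, by the mean over the mice of Spearman's rho, included Phf11d (0.890), Apol9a (0.797), Zfx (0.760), Clec2d (0.745), Slfn2 (0.733), Trafd1 (0.730), Apobec3 (0.710), Tap1 (0.693) and Ptpn18 (0.680), out of 5600 genes compared. Among the members themselves Oasl2 (0.896), Xaf1 (0.881) and Isg15 (0.840) were closest, and Trim25 (-0.06) and Gbp2 (0.197) least close. All clusters of a mouse share 1 library, so these values are descriptions.

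The study compared cluster 6, which carries luminal and basal features, with cluster 13, and the members were read in the same contrast. Of the 33 members, 30 passed the filter on low counts and were tested with edgeR, with the mouse as a block. Of the 30, 9 were higher in cluster 6, beside 16.3% of the 9794 genes tested, and 4 were lower, beside 12.1%. Higher were Ifi27l2a, Isg15, Ifit1, Ifit2, Ifit3, Ifit3b, Ifi44, Irf7 and Ifitm3, and lower were Irf1, Irf9, Usp18 and Parp14. Of the 9, Ifi27l2a, Ifit1, Ifit2, Ifit3, Ifit3b and Ifi44 met the filter (4.99 CPM in both mice) in cluster 6 only. They were tested because they were high there, so the count of 9 is not read against the share of all genes. Without the mouse as a block 7 members passed and DESeq2 called 5. With 1 sum left out, 0 passed without cluster 6 of mouse 2, 3 without cluster 6 of mouse 1, and 7 and 4 without cluster 13 of mouse 1 and of mouse 2. The mice are the only replicates, so that the p-values rest on 1 residual degree of freedom and on spread shared over genes. Clusters were drawn from these same expression values, so p-values here and in the later comparison of cluster 6 are no independent support for a difference.

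Ifi27l2a differed most, at 88.5 and 128 CPM in cluster 6 and 4.10 and 7.45 CPM in cluster 13 (log2 difference 4.10 ± 0.37, adjusted p by edgeR 5.85e-11). It was among the members that met the filter in cluster 6 only, so its rank and p-value are descriptions. Isg15 stood at 135 and 119 CPM against 41.8 and 40.5 CPM (1.52 ± 0.27, 3.46e-05), and Ifitm3 at 1125 and 1807 CPM against 667 and 489 CPM (1.23 ± 0.22, 3.82e-05). In all 13 members past the threshold the values of cluster 6 and cluster 13 did not overlap, as in 98.2% of all genes past it. The IFIT genes were low in cluster 13, with 4 and 7 UMIs of Ifit1, 0 and 4 of Ifit2, 2 and 3 of Ifit3 and 2 and 0 of Ifit3b, so that the size of their differences is poorly fixed. Ifit3 stood at 20.2 and 22.6 CPM in cluster 6 against 1.64 and 1.24 CPM, but 1 cell in each mouse held 44.9% and 47.2% of its UMIs in cluster 6, and without them it was at 11.2 and 12 CPM there. Ifit1 was at 12.6 and 18.9 CPM against 3.28 and 2.90 CPM.

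The regulators went in opposite directions. Irf7 was higher in cluster 6, at 49.6 and 49.0 CPM against 36.9 and 12.8 CPM (1.04 ± 0.35, adjusted p by edgeR 0.022). Irf1 was lower, at 6.74 and 20.8 CPM against 60.7 and 54.2 CPM (-2.32 ± 0.37, 5.96e-06), as was Irf9, at 8.21 and 23.3 CPM against 41.0 and 23.6 CPM (-1.23 ± 0.42, 0.024). Irf9 of mouse 2 was thus nearly equal in the clusters. Usp18 stood at 9.38 and 11.3 CPM against 25.4 and 21.9 CPM and Parp14 at 17.6 and 31.4 CPM against 48.4 and 45.9 CPM, both lower in cluster 6.

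**Figure D5:**
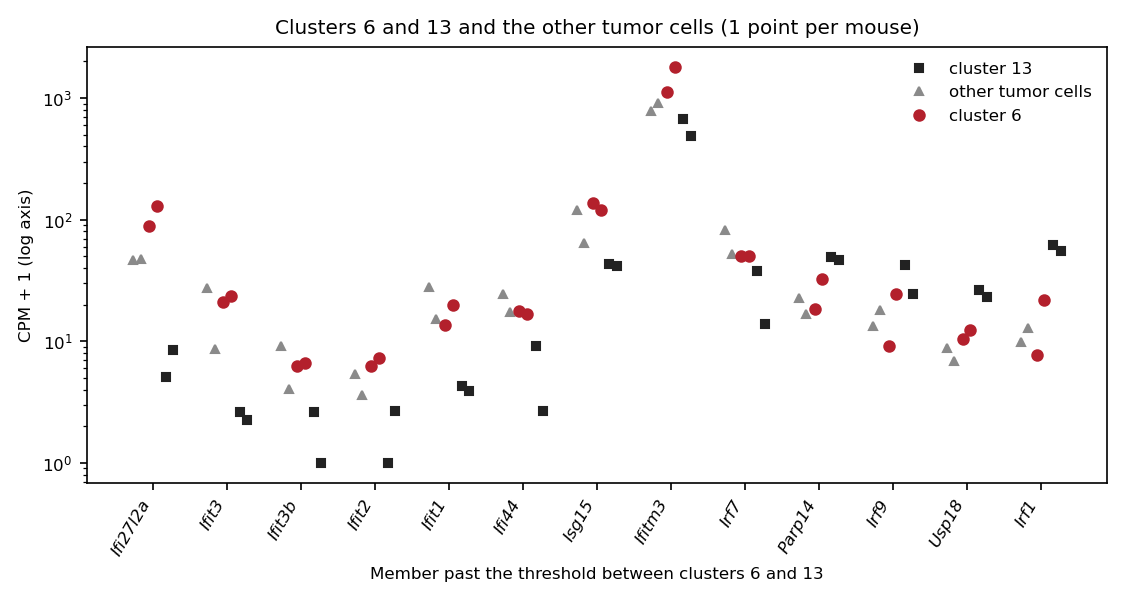
Level (CPM + 1, log axis) of the 13 members past the threshold between clusters 6 and 13, in cluster 6 (red circles), cluster 13 (black squares) and the other tumor cells (grey triangles), with 1 point per mouse. Ifi27l2a stands at 88.5 and 128 CPM in cluster 6 against 4.10 and 7.45 CPM in cluster 13, whereas Irf1 stands at 6.74 and 20.8 CPM against 60.7 and 54.2 CPM.

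Part of the level in cluster 6 was held by its 32 and 43 cells with transcripts of another cell type. In these cells of mouse 2, Isg15 stood at 332 CPM and Rsad2 at 144 CPM, against 44.3 and 0.851 CPM in the other 124 cells, and the core sum was 1139 against 226 CPM. In mouse 1 the core sum was 552 against 396 CPM in the other 228 cells, and Ifit3 stood at 23.0 against 19.8 CPM. Without these cells, 4 members were higher than in cluster 13 (Ifi27l2a, Ifitm3, Irf7 and Isg15) and 7 lower (Irf1, Irf9, Usp18, Parp14, Gbp7, Oasl2 and Rsad2), of 25 tested, beside 1429 genes (15.1%) higher and 1131 lower of 9442 genes tested. The IFIT genes then failed the filter on low counts.

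Cluster 6 was also set against all annotated cells outside clusters 6 and 13. These sums share the cells of cluster 6 with the comparison above, and 3 of 33 members were higher in cluster 6, beside 12.1% of the 14350 genes tested, and 2 lower, beside 6.63%. Ifi27l2a stood at 88.5 and 128 CPM against 45.6 and 46.3 CPM (log2 difference 1.17 ± 0.18, adjusted p by edgeR 0.0022), Gbp2 at 57.5 and 43.4 CPM against 31.4 and 20.4 CPM (0.94 ± 0.18, 0.0083) and Ifitm3 at 1125 and 1807 CPM against 779.6 and 905 CPM (0.73 ± 0.17, 0.019). Trim25 was lower, at 32.8 and 27.0 CPM against 55.1 and 50.6 CPM (-0.85 ± 0.19, 0.014), and Oasl1 was lower at 4.98 and 5.03 CPM against 12.9 and 8.95 CPM (-1.18 ± 0.34, 0.045). The median log2 difference was 0.05 over the members and -0.06 over all genes tested. Among the other tumor cells, cluster 17 held 88 of 696 Oasl1 UMIs in mouse 1 and 71 of 474 in mouse 2. For Ifit3 it held 823 of 1433 and 205 of 405 UMIs. How far the results for the core members rest on cluster 17 was not tested. Without the cells with transcripts of another type, 3 members were higher, beside 11.6% of genes, and 9 lower, beside 8.73%. Without the block 1 member passed, and with any of the 4 sums left out 0 or 1 did.

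Of 109 measured pathway genes outside the members, 63 were tested between clusters 6 and 13, and 13 were higher, beside 16.3% of all genes, and 13 lower, beside 12.1%. Some of the higher genes, among them Socs1, Ifi203, Mndal, Ifi204 and Slfn5, met the filter in both mice in cluster 6 only. They were tested because they were high there, so the count of higher genes is not read against the share of all genes. Against the other tumor cells, 81 were tested, and 18 were higher, beside 12.1% of genes, and 2 lower, beside 6.63%. Of these 18, Cxcl9, Ifitm1 and Cd274 met the filter (0.355 CPM in both mice) in cluster 6 only. The count of 18 is thus not read against the share of all genes either. Socs1, which inhibits Jak kinases, stood at 64.5 and 32.7 CPM in cluster 6 against 5.74 and 3.72 CPM in cluster 13 (3.20 ± 0.41, adjusted p by edgeR 1.42e-07). It stood at 67.9 and 34.0 CPM in the cluster 6 cells without transcripts of another type. As Socs1 met the filter in cluster 6 only, its p-value is a description. Ifi203, Mndal, Ifi204 and Slfn5 were higher as well, and their UMIs lay mostly in the cells with such transcripts. Ifi203, a nuclear DNA-binding protein, stood at 83.6 and 354 CPM in these cells and at 3.07 and 0.851 CPM in the rest of cluster 6, and Slfn5 at 60.6 and 274 CPM against 0.341 and 3.405 CPM. Oas3 was lower, at 0 and 1.26 CPM against 17.2 and 14.9 CPM, and met the filter in cluster 13 only. Cxcl9, Ifitm1 and Ifi211 were higher than in the other tumor cells, with 42.1, 22.0 and 18.2 CPM in cluster 6 of mouse 2 and 5.86, 2.64 and 3.81 CPM in mouse 1. In cluster 6 cells without transcripts of another type, Ifitm1 had 2 UMIs in mouse 1 and 0 in mouse 2.

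The mice differed in level but not in the leading cluster. Over all annotated cells, 27 of 33 members were higher in mouse 1, and the core sum was 524 CPM in mouse 1 and 346 CPM in mouse 2. It was higher in mouse 1 in 15 of the 18 clusters. Cluster 17, part of these levels, held 2.09% of the UMIs and 20.4% of the core UMIs in mouse 1, and 1.35% and 15.6% in mouse 2. The count of 27 has no share of all genes beside it and is a description. Ifit3 stood at 25.7 and 7.79 CPM and Isg15 at 119 and 64.1 CPM, whereas Ifitm3 stood at 797 and 913 CPM and Irf1 at 9.84 and 13.8 CPM. With 1 library per mouse, a difference between animals cannot be told apart from one between libraries, and it was not tested.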

How the data were processed

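Single cells of GFP-positive tumor epithelium from 2 mice were analysed, 1 library per mouse, with the mouse as the replicate. The deposited matrices hold raw UMI counts per gene and barcode, which the authors made with Cell Ranger 6.0.1 on mm10. The authors' cell annotation, made with Seurat after removal of doublets and of lymphoid and myeloid clusters, gives each cell a cluster and the mitochondrial fraction of its UMIs. Members and lists were chosen with earlier results of these data known. Mx1 and Mx2 were not analysed here, and 1 gene of the pathway lists is not reported here.

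UMIs were summed per mouse and cluster and tested with edgeR 4.0.16 (quasi-likelihood, filterByExpr, TMM, mouse as block, Benjamini-Hochberg over all genes tested, threshold 0.05) in R 4.3.3. Clusters 6 and 13, cluster 6 and the cells outside clusters 6 and 13, the 18 clusters, and interferon-rich and other cells were compared. The mouse pairs the sums because clusters of a mouse come from the same animal. Deviations of same-mouse sums correlated across genes with Pearson's r of 0.138 and 0.390 in the comparisons with cluster 13 and with the other tumor cells. On simulated counts the fit for clusters 6 and 13 called 25 of 100 genes changed 2-fold, 100 of 100 changed 4-fold, and 8 unchanged genes. Thinning drew 2000 UMIs per cell with Python 3.11.15 and numpy 2.4.6. Depth was 58629906 and 56972644 UMIs in annotated cells, and intervals cover counting error only. UMIs were counted at 3′ ends and not scaled to length, so a gene's part of a sum is its part of the captured UMIs.

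Members were named with values where they reached 20 CPM in their highest cluster, or passed a test with 10 CPM. Pathway genes were named up to 6 per comparison, and genes of interferon-rich cells up to 12, by size of change, and other pathway genes given as background for a role were chosen after their values were seen. Alternatives were DESeq2 1.42.0 and its size factors, no filter, no block, thinned cells, a fold of 1.5, cells of other types left out, other limits for interferon-rich cells and each sum left out. Cells outside cluster 17 and clusters without cluster 17 were added after seeing the data. Promoters came from RefSeq on GRCm38.p6.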

Additional observations from a re-analysis of the deposited data

How the results depend on the processing

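Of the members, 13 passed between clusters 6 and 13. DESeq2 called 5, the fit with no replicate block 7, cells thinned to 2000 UMIs 5 and the test against a fold of 1.5 8. With each sum left out in turn the count ran from 0, without cluster 6 of mouse 2, to 7, without cluster 13 of mouse 1. Parp14, lower in cluster 6, turned to a log2 difference of 0.21 in thinned cells (adjusted p by edgeR 0.853), and the cause was not tested. Against the other tumor cells, 5 members passed, 1 with no replicate block, 3 in thinned cells, 1 against a fold of 1.5 and 12 without cells of other types, and with 1 sum left out 0 to 1. Of the further interferon-induced genes, 39 passed in interferon-rich cells, 21 by DESeq2, 3 with no replicate block and 25 outside cluster 17, and with 1 sum left out 0, without the interferon-rich sum of mouse 1, to 15, without the other cells of mouse 1. A left-out sum leaves an arm with 1 sample, which is assumed to vary like the other group. The call among the 18 clusters held for every member tested except without cluster 17, where 28 of 33 passed. The mean ratio of the summed level in cluster 17 to the median of the other clusters, 5.67, was 8.53 without the 3 highest members and 7.74 by the median scaled level. The share of interferon-rich cells in cluster 17, 86.9% (mean of both animals), was 57.8% at 1000 UMIs and 100% without thinning. Outside cluster 17 it was 6.99%, and 2.48% at 1000 UMIs, 35.1% without thinning and 15.9% with at least 2 core members.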
